A study of Mus musculus with 10 samples.

Results

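The genes described here are voltage-gated and potassium ion channel genes of the mouse cortex, picked by symbol and by where reads were counted. Counts in these libraries lie on the strand opposite to annotated genes, so each counted gene ID was credited to the gene on the other strand with 90% or more of the exon bases that face the ID, in GENCODE release M21 on build GRCm38. Assigned genes were kept when the symbol began with Kcn, Scn, Cacn, Hcn, Clcn, Trpc, Trpm or Trpv, with Kcnj13 left out. This gave 43 of the 7385 assigned genes, reached through 51 IDs. Among all 178 genes of GENCODE M21 with such symbols, 135 had no ID assigned to them and are not analysed here. They include 17 of 18 Scn genes, 3 of 4 Hcn genes and all 6 Trpv genes. Of the 43, 40 encode proteins and 3 are noncoding RNAs (Kcnq1ot1, Kcnab3os and Kcnd3os). Trpc4ap fits the symbol rule but encodes a TRPC4-binding adaptor and not a channel.

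Ion channels are membrane proteins that let potassium, sodium, calcium or chloride cross the membrane along their gradients, and they set how a neuron rests, fires and releases transmitter. Potassium channels bring the membrane back to rest, voltage-gated calcium channels link firing to transmitter release, and chloride channels and TRP channels add further currents. Most work as a pore-forming subunit with auxiliary subunits that tune its gating or its delivery to the membrane.

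The samples were small pieces of dissected cortex from 10 mice on a C57BL/6 background. Wild-type (wt/wt) mice, 5 animals aged 442 to 663 days, were compared with 5 dTPR/dTPR mice aged 541 to 630 days, which are homozygous for a Stip1 allele whose STI1 protein lacks the TPR1 domain. The sex of the animals is not given in the sources used here. STI1 is a co-chaperone that hands proteins from HSP70 to HSP90, and the comparison asks which cortical transcripts differ without that domain. Library totals ran from 667751 to 927242 counts. CPM below are counts per 1000000 counts of the library total scaled by its TMM factor, and 3 counts corresponded to 3.18 to 4.31 CPM. Of 18 listed markers of cortical excitatory neurons, 6 had an assigned ID and 4 passed the filter on low counts (among them Tshz2, Ccn2 and Neurod1), while Slc17a7, Tbr1 and Cux2 had no assigned ID. In a bulk sample, fewer cells of a type and less RNA per cell cannot be told apart.

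A channel gene is represented here only by the IDs that face it, and for some genes the facing part codes for the pore. Where within an ID the reads fell cannot be seen in counts per ID. In the coding stretches facing the assigned IDs, taken from the transcript with the longest coding sequence, the codons of the potassium channel selectivity filter (Thr-any-Gly-Tyr-Gly) were searched in the reading frame of the channel gene's strand as ACNNNNGGNTANGGN. They were found for 3 of the 26 IDs of channel genes with such a stretch, IDs with 0 counts included. Over all assigned genes they were found for 6 of 2306 such IDs (0.26%), where stretches differ in length. The channel genes were picked by symbol, many of them potassium channel genes, so a higher share follows from that choice. The genes with these codons include Kcnj3 and Kcna6, both abundantly counted potassium channel genes. Their filter regions are shown because these bases lie opposite to exons of the counted IDs, with letters taken from GENCODE M21 transcripts 5′ to 3′ on the gene's strand, with the filter codons in capitals.
Kcnj3, chr2:55437582-55437686, plus strand: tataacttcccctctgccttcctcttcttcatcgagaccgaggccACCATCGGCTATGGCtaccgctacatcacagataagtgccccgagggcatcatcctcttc
Kcna6, chr6:126738602-126738706, minus strand: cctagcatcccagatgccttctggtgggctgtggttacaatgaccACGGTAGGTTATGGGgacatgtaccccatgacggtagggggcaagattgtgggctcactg

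For the calcium channel genes with most counts, the facing coding bases lay toward the 3′ end. In Cacna1a a stretch of 151 bases, positions 5106 to 5256 of its 7104 coding bases, faced Gm16183. In Cacnb4 the last 258 of 1557 coding bases faced A430018G15Rik. Both are printed as coding parts that face the counted ID. They are not all that faces it, as 435 bases of Cacna1a and 1433 of Cacnb4 were shared. A second coding stretch of Cacna1a, of 78 bases, also faced Gm16183.
Cacna1a, chr8:84611598-84611748, plus strand: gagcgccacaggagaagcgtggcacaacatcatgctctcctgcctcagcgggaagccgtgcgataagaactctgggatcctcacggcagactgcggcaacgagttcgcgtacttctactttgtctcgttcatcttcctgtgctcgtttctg
Cacnb4, chr2:52434492-52434749, minus strand: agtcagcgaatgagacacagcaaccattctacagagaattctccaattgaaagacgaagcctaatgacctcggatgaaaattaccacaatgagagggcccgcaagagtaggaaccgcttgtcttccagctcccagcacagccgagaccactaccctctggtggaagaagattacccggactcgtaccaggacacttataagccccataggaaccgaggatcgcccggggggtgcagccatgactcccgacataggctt

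Counts were spread very unevenly over the 43 genes. Together they held 31121 counts over the 10 libraries, 0.39% of all counts. Kcnj3, Cacnb4, Cacna1a and Kcnmb4 held 58.4% of them. The 18 genes that passed the filter held 97.7%. Another 18 were counted but failed the filter, 15 of them with 10 counts or more in sum, and 7 had 0 counts (among them Kcnd3, Kcne3, Kcnt2, Trpm1, Trpm5 and Trpm8). Summed over the genes, the level averaged 3813 ± 608 CPM for wild-type and 3990 ± 754 CPM for dTPR/dTPR animals (SD, n = 5 each), and the group ranges overlapped. Because IDs differ in length, CPM alone does not rank genes by level, and CPM per kilobase of counted ID exons was compared. On that scale the highest levels were those of Cacna1a (444), Cacnb4 (364), Cacna1h (229.7), Kcnmb4 (158.3) and Kcnj3 (158.0). Per kilobase of shared bases Trpc4ap came first at 2667, from 37 shared bases, so the order depends on which length is used.

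**Figure D1:**
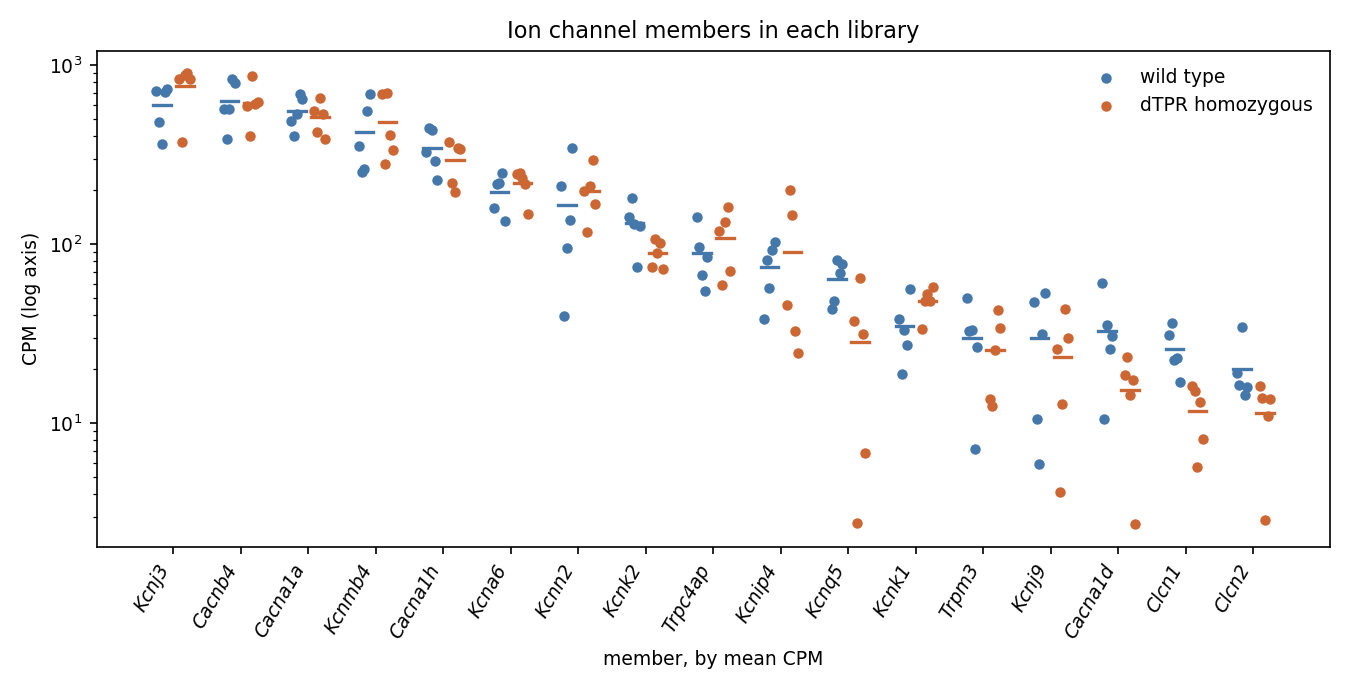
CPM (log axis) of 17 of the 18 ion channel genes that passed the filter, for each wild-type and dTPR/dTPR library, with a bar at each group mean (n = 5). Kcnj3 and Cacnb4 lie highest in CPM, which takes no account of ID length. The 2 groups overlap for every gene shown except Clcn1.

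How the counted IDs lie against the genes fell into 2 patterns among the 18. For 13 genes the facing bases included coding sequence, and 35.4% to 100% of the exon bases of each counted ID lay inside the channel gene, facing its exons or introns. All but 1 of their 15 counted IDs were noncoding RNA annotations, such as Gm26794 opposite to Kcnj3, A330093E20Rik opposite to Kcnn2, A430027H14Rik opposite to Kcnk2, Gm26580 opposite to Kcnq5, Gm45875 opposite to Kcnk1, Gm36937 opposite to Kcnj9 and Gm27151 opposite to Trpm3. The exception was the protein-coding 5730480H06Rik, which with Gm20700 faces Kcnip4. For Cacna1d, Cacna1h, Clcn1, Clcn2 and Trpc4ap no coding base was shared. Their counts lay at neighbouring protein-coding genes that overlap an end of the channel gene: Chdh, Tpsg1, Fam131b, Fam131a with Polr2h, and Myh7b. Between 0.558% and 11.4% of the exon bases of those neighbours lay inside the channel gene. Thus for these 5 genes most counted bases were outside the gene they are credited to. The same held for Kcnj3, with 43.9% of the exon bases of Gm26794 inside it. Among the 13, the share of an ID facing exons ran from 1.80% (5730480H06Rik) to 83.7% (A430018G15Rik).

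The channel genes' own IDs were counted too, but the filter used only counts at the assigned IDs. Among the 18, more counts at assigned IDs than at own IDs therefore follow in part from that filter. Over the 10 libraries, the 18 tested genes held 30399 counts at the assigned IDs and 8688 at their own, of which 6083 were at the ID of Clcn1. Without Clcn1 the sums were 30248 and 2605. Kcnq5 had 0 counts at its own ID, and Kcnmb4 had 9 against 3594. Kcna6 and Kcnk2 were less one-sided, with 900 against 1636 and 644 against 886 counts. Clcn1 was the exception: 151 counts lay at Fam131b, credited to Clcn1, and 6083 at the ID of Clcn1 itself, which faces Fam131b. Among the 18 genes that were counted but failed the filter, 10 had more counts at their own ID, for example Kcnh7 with 361 against 35. Whether low counts at an assigned ID come from the channel gene or from the ID's own transcript was not tested.

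**Figure D2:**
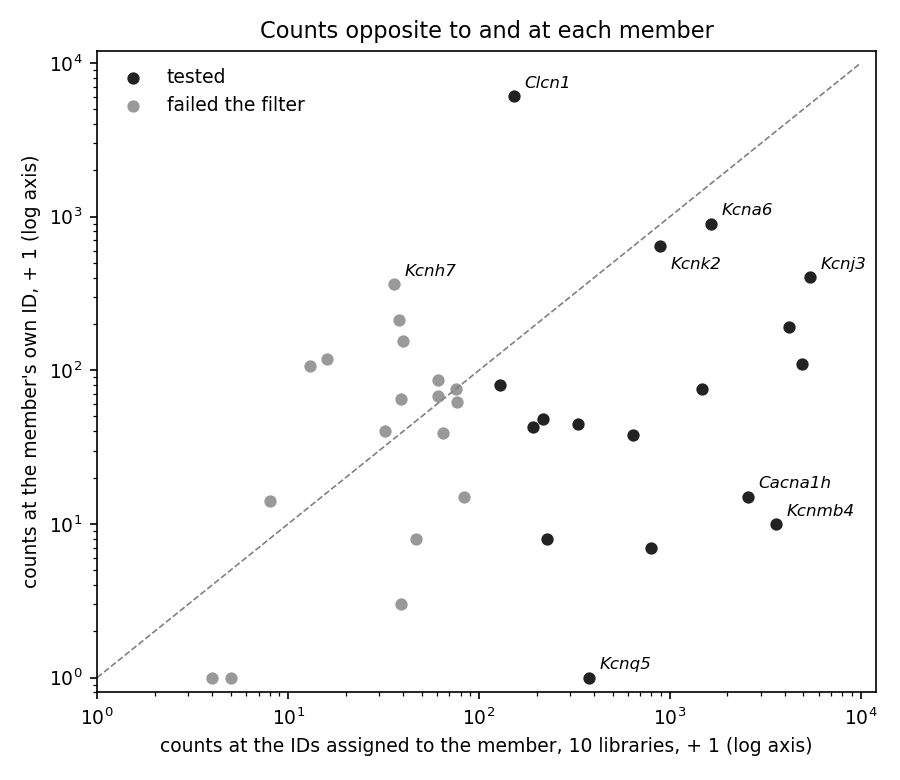
Counts at the IDs assigned to each of 35 of the 36 counted genes (horizontal) against counts at the gene's own ID (vertical), summed over 10 libraries, 1 added, both axes logarithmic, with a dashed line of equality. The tested genes shown lie below the line except Clcn1, which has 151 assigned and 6083 own counts. The filter that picked the tested genes used assigned counts only.

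No channel gene was called between genotypes. With edgeR's quasi-likelihood test and Benjamini-Hochberg adjustment over all 2019 genes tested, 0 of the 18 passed an adjusted p of 0.05, where 0% of all genes did. The adjusted p was 0.999 for each of the 18. At an unadjusted p under 0.05 there were 0 of 18, against 57 of 2019 (2.82%). DESeq2 also called 0 genes, with 138 of 5158 (2.68%) at an unadjusted p under 0.05. Among them were 2 of 36 channel genes, Clcn1 and Kcnq5, both with an adjusted p of 0.987 in DESeq2. Fold changes were negative in 10 of 18 genes (49.8% of all tested genes) and positive in 8. Their median was -0.07 on the log2 scale, against 0.0017 over all tested genes, and the median size of a change was 0.28 against 0.25. The median standard error of these log2 fold changes was 0.37, against 0.42 over all tested genes. All 5 dTPR/dTPR animals lay below the wild-type mean for 4 genes, Cacna1d, Clcn1, Clcn2 and Kcnk2, and above it for 0. Over all tested genes the shares were 9.41% and 6.09%. Every dTPR/dTPR library lay below every wild-type library for 1 of the 18, Clcn1 (0.149% of all tested genes), and above for 0 (0.198%).

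**Figure D3:**
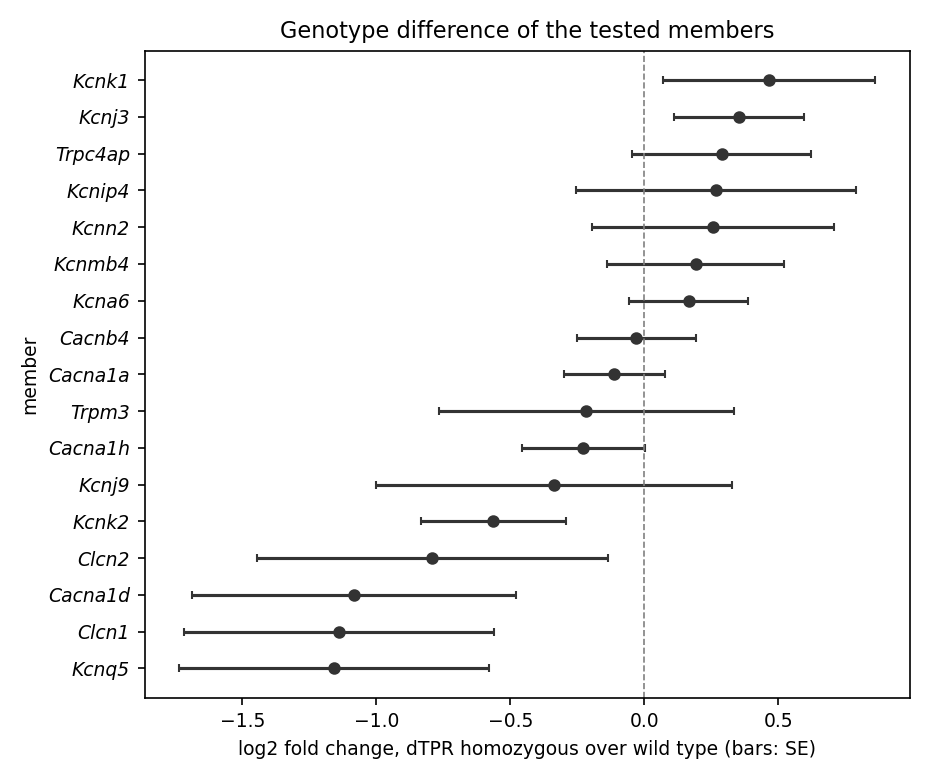
Log2 fold change of dTPR/dTPR over wild type with its standard error for 17 of the 18 tested ion channel genes, from edgeR. Values run from -1.16 for Kcnq5 to 0.46 for Kcnk1, and none passed an adjusted p of 0.05.

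Among the potassium channels that let current flow inward or leak at rest, Kcnj3 held the most counts. Kcnj3 encodes GIRK1, a subunit of the inward rectifier opened by G proteins downstream of inhibitory receptors. It was at 717, 481, 359.7, 703 and 730.4 CPM in wild-type animals 1 to 5 and at 835, 371, 879, 898 and 838 CPM in dTPR/dTPR animals 1 to 5. In dTPR/dTPR cortex 4 of 5 animals lay above every wild-type animal, while animal 2 lay among the lowest 2 of all 10. The means were 598 ± 168 and 764 ± 221 CPM (SD, n = 5 each), a log2 fold change of 0.35 ± 0.24 (SE; unadjusted p = 0.16, adjusted p = 0.999 in edgeR). Leaving out dTPR/dTPR animal 2 gave 0.53, leaving out wild-type animal 3 gave 0.21, and a model holding the level of striatal markers gave 0.05. Kcnj9, which encodes the GIRK3 subunit, was at 5.90 to 53.0 CPM in wild type and 4.14 to 43.6 CPM in dTPR/dTPR libraries, with a log2 fold change of -0.34 ± 0.66. Its lowest libraries, wild-type animals 2 and 3 and dTPR/dTPR animal 2, were also the lowest 3 for Kcnj3.

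The 2 tested two-pore potassium channels, which carry background current, pointed in opposite directions. Kcnk2, encoding the mechanically and lipid-gated TREK-1, was at 142, 181, 129.7, 74.8 and 126 CPM in wild type and at 74.1, 106, 88.6, 101 and 72.3 CPM in dTPR/dTPR cortex. Animal 4 was the only wild-type animal within the dTPR/dTPR range. Its log2 fold change of -0.56 ± 0.27 had the smallest p of the 18 (unadjusted p = 0.053, adjusted p = 0.999 in edgeR), and was -0.37 without wild-type animals 2 and 3. Kcnk1, encoding TWIK-1, measured 37.9, 18.7, 33.0, 27.3 and 56.2 CPM in wild type and 33.3, 48.3, 52.9, 48.0 and 57.3 CPM in dTPR/dTPR libraries. Most dTPR/dTPR values were higher, but the groups overlapped, with a log2 fold change of 0.46 ± 0.40.

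Among voltage-gated potassium channels, the levels of Kcna6 and Kcnq5 differed in their spread. Kcna6, encoding the delayed rectifier Kv1.6, varied least among the potassium channel genes. It was at 159.7, 215, 218, 249 and 134 CPM in wild type and 246, 249.6, 233, 217 and 147 CPM in dTPR/dTPR libraries, a log2 fold change of 0.16 ± 0.22. The whole coding sequence of Kcna6, 1587 bases, faced the counted ID Gm26673. Kcnq5, encoding Kv7.5 of the M-current that damps repeated firing, had the most negative fold change of the 18. Its values were 43.3, 48.0, 81.4, 69.0 and 77.4 CPM in wild type and 37.0, 2.76, 64.3, 31.6 and 6.83 CPM in dTPR/dTPR animals. In animals 2 and 5 of the latter only 2 and 5 counts were found, whereas animal 3 lay inside the wild-type range. The log2 fold change was -1.16 ± 0.58 (unadjusted p = 0.061, adjusted p = 0.999 in edgeR) and ran from -1.68 to -0.86 with any 1 library left out.

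Calcium-activated potassium channels were represented by Kcnn2 and by Kcnmb4. Kcnn2 encodes SK2, which opens when calcium enters and follows a spike with a hyperpolarisation. Its wild-type values spread widely, at 209.8, 39.8, 95.5, 137 and 346 CPM, and it stood at 198, 117, 212, 293 and 168 CPM in dTPR/dTPR libraries. The dTPR/dTPR values all lay within the wild-type range (log2 fold change 0.26 ± 0.45), and the sign turned to -0.23 without wild-type animals 2 and 3. With single animals left out, the value of Kcnn2 ran from 0.00048 (wild-type animal 2) to 0.72 (wild-type animal 5). Kcnmb4 encodes the β4 subunit that modifies neuronal BK channels. It was at 352, 253, 262, 556 and 684 CPM in wild type and at 688, 279, 699, 405 and 334 CPM in dTPR/dTPR cortex, so the groups covered nearly the same range (log2 fold change 0.19 ± 0.33). The fold change of Kcnmb4 turned to -0.14 without wild-type animals 2 and 3.

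Kcnmb4 was counted at IDs facing both of its ends. Kcnmb4os1 faces the last 166 of its 630 coding bases and held 2032 counts, and Kcnmb4os2 faces the first 336 and held 1562. Of the exon bases of Kcnmb4os2, 35.4% lay inside Kcnmb4, against 100% for Kcnmb4os1. The means at Kcnmb4os1 were 240.7 CPM in wild type and 271 CPM in dTPR/dTPR cortex, and at Kcnmb4os2 they were 181 and 209.7 CPM, so both ends differed in the same direction and by less than the spread between animals. In wild-type animal 1 the ends differed most, with 199 counts at Kcnmb4os1 and 61 at Kcnmb4os2, whereas in wild-type animals 2 and 3 Kcnmb4os2 held more. Kcnma1, which encodes the BK pore itself, had 60 counts in all, from 4930519K11Rik at its 5′ end. Kcnip4 encodes a calcium-binding partner of Kv4 channels. It ranged from 37.9 to 103 CPM in wild type and from 24.6 to 199.99 CPM in dTPR/dTPR libraries. Its log2 fold change of 0.27 ± 0.52 turned to -0.26 without dTPR/dTPR animal 2, the highest library. Of the counts of Kcnip4, 489 lay at 5730480H06Rik, with means of 60.7 CPM in wild type and 65.3 CPM in dTPR/dTPR cortex. The other 150 lay at Gm20700, with means of 13.5 and 24.5 CPM. The 2 IDs differed within libraries, with 3 and 34 counts in dTPR/dTPR animal 1.

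Among voltage-gated calcium channels, Cacna1a and Cacnb4 were abundant and nearly equal between genotypes. Cacna1a encodes the pore of P/Q-type channels, which drive transmitter release, and Cacnb4 encodes a β subunit that brings such pores to the membrane. Cacna1a was at 487, 401, 533, 686 and 642 CPM in wild type and 552, 425, 650.4, 534 and 384 CPM in dTPR/dTPR animals, with a log2 fold change of -0.11 ± 0.19. Cacnb4 was at 567, 386, 564, 839.6 and 791 CPM in wild type and 590.2, 401, 871, 602 and 617 CPM in dTPR/dTPR animals, with a log2 fold change of -0.03 ± 0.22 that changed sign with 1 library left out (-0.18 to 0.10). For each of the pair, both genotypes covered much the same range. Wild-type animal 2 was the lowest of its group for both.

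Cacna1h and Cacna1d, read only at neighbouring genes, had lower means in dTPR/dTPR cortex. Cacna1h encodes the low-threshold T-type pore Cav3.2. It was at 326, 446, 434, 289 and 227 CPM in wild type and 373, 219, 194, 345 and 337 CPM in dTPR/dTPR libraries, from Tpsg1, of which 158 bases are shared. The groups overlapped widely (log2 fold change -0.23 ± 0.23, and 0.07 without wild-type animals 2 and 3, the 2 highest). Cacna1d encodes the L-type pore Cav1.3. Its values were 60.9, 10.5, 35.4, 25.9 and 30.7 CPM in wild type and 18.5, 23.4, 14.3, 17.5 and 2.73 CPM in dTPR/dTPR animals, where the lowest library held 2 counts. All dTPR/dTPR animals lay under the wild-type mean of 32.7 ± 18.3 CPM, but wild-type animal 2 lay below 4 of them (log2 fold change -1.08 ± 0.60, unadjusted p = 0.090, adjusted p = 0.999 in edgeR).

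The chloride channel genes showed the only separation of the groups, at low counts. Clcn1 encodes the chloride channel of skeletal muscle. Counts credited to it gave 31.1, 36.3, 22.4, 23.0 and 16.96 CPM in wild type and 16.1, 15.2, 5.72, 13.1 and 8.19 CPM in dTPR/dTPR libraries. Every dTPR/dTPR library lay below every wild-type library, but the nearest pair, at 16.96 and 16.1 CPM, was close. The means were 25.96 ± 7.67 and 11.6 ± 4.50 CPM (SD, n = 5 each), from 4 to 31 counts a library. The log2 fold change of -1.14 ± 0.58 had an unadjusted p of 0.065 and an adjusted p of 0.999 in edgeR. These counts lie at Fam131b, of whose 4104 exon bases 445 face Clcn1, beside the 6083 counts at the ID of Clcn1, so whether they report on Clcn1 was not tested. Clcn2, encoding the widely expressed ClC-2, was at 18.95, 16.4, 34.2, 14.4 and 15.9 CPM in wild type and 16.1, 13.8, 2.86, 10.9 and 13.7 CPM in dTPR/dTPR libraries. Its groups overlapped, and the log2 fold change of -0.79 ± 0.65 was -0.51 without wild-type animal 3. In that animal 15 counts lay at Polr2h, against 0 or 1 in the other wild-type libraries, and 14 at Fam131a.

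No ID was assigned to 8 of 9 Trpc genes, 4 of 8 Trpm genes and all 6 Trpv genes, and the TRP-prefixed genes with counts were Trpm3 and Trpc4ap. Trpm3, encoding a cation channel opened by heat and by the steroid pregnenolone sulfate, ranged from 7.19 to 50.1 CPM in wild type and from 12.4 to 42.6 CPM in dTPR/dTPR libraries. Its log2 fold change of -0.22 ± 0.55 was 0.06 without wild-type animal 1. Trpc4ap, the adaptor, was at 142, 96.0, 67.2, 54.6 and 84.8 CPM in wild type and at 119, 59.3, 133, 160.4 and 71.0 CPM in dTPR/dTPR libraries, from Myh7b, with which it shares 37 bases. Its groups overlapped (log2 fold change 0.29 ± 0.33).

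The 15 genes with at least 10 counts that failed the filter were each read in 3 to 9 libraries. Sums over the 10 libraries were 82 counts for the pacemaker channel gene Hcn3, 76 for Clcn4, 75 for Kcnab1 and 64 for Kcnab3, both β subunits of Kv1 channels, and 60 each for Cacng2 (stargazin) and Kcnma1. Lower sums were found for Cacna1s of skeletal muscle (46), the peripheral sodium channel gene Scn9a (39), Kcnab3os and Kcnq1ot1 (38 each), Kcnn1 (37), Kcnh7 (35), Cacnb2 (31), Kcnk3 (15) and Cacnb1 (12). Kcnab3 and Kcnab3os face each other, so each was read at the ID of the other. The other 3 had fewer than 10 counts. These genes entered only the alternatives with a looser filter or none and DESeq2, where 0 were called. Without a filter, 2 of 36 channel genes, Kcnq5 and Kcng2, had an unadjusted p under 0.05 in edgeR. The same unfiltered fit put 540 of all 5176 genes below that cutoff, a larger share than among the channel genes. Kcng2 had 7 counts in all and is named after its value was seen.

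Between animals, 1 channel gene, Kcnn2, moved with the level of striatal markers in the piece of tissue beyond the adjustment for 18 genes. The relation was examined after the data were seen, and only for the 18 tested channel genes. How many of all tested genes move with that level was not tested, so whether 1 of 18 is unusual is not known. That level was the mean log2 CPM of Penk, Ppp1r1b, Rarb and Syndig1l, the 4 of 14 listed markers with an assigned ID. All 4 had counts, and Drd1, Drd2 and Adora2a had no assigned ID. Their summed level was 773 to 5523 CPM in wild type and 392 to 2262 CPM in dTPR/dTPR cortex, and it was highest in wild-type animals 3 and 2. The 4 markers had negative fold changes (median -1.28 on the log2 scale), and 0 were called in edgeR. Kcnn2 fell as that level rose, with Pearson's r = -0.83 (permutation p = 0.0024, adjusted p = 0.044 over 18 genes) and Spearman's rho = -0.90 (permutation p = 0.00091, adjusted p = 0.016; n = 10 animals, two-sided). Its r was -0.88 without the 2 animals farthest from the median level, -0.84 within wild type and -0.89 within dTPR/dTPR animals (5 each, no test). For Kcnj3 r was -0.73 and rho was -0.75 (permutation p = 0.016 and 0.017, adjusted p = 0.14 and 0.16, n = 10), and for Trpc4ap they were -0.71 and -0.64 (permutation p = 0.024 and 0.054, adjusted p = 0.14 and 0.25). Without the 2 farthest animals r was -0.53 for Kcnj3 and -0.56 for Trpc4ap. The other 15 genes had an unadjusted permutation p above 0.05 for r. For rho, Kcnmb4 was under 0.05, at -0.70 (permutation p = 0.032, adjusted p = 0.19). The share of counts at mt-Nd6, from 19.4% to 27.3% of a library, moved with the striatal level too (Pearson's r = 0.76, permutation p = 0.0090, n = 10), and r of Kcnn2 with that share was -0.76. The part of either in the values of Kcnn2 was not tested. All counts of Kcnn2 lay at A330093E20Rik, with 8.53% of its exon bases facing exons of Kcnn2 and 62.2% inside the gene. Whether these counts report on Kcnn2 was not tested.

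**Figure D4:**
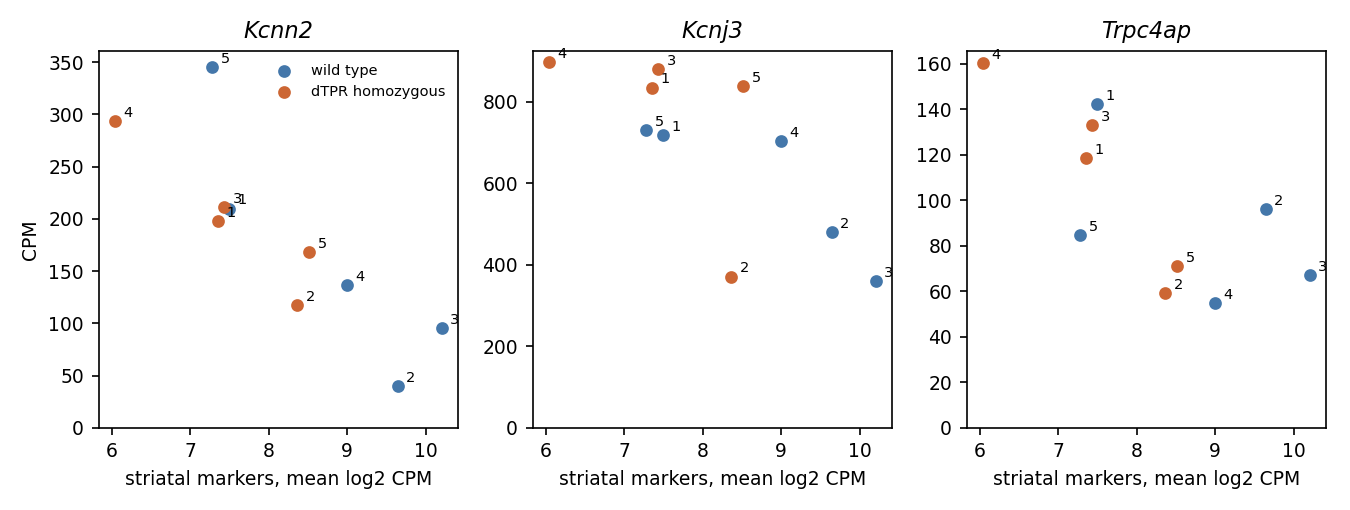
CPM of Kcnn2, Kcnj3 and Trpc4ap in each library (vertical) against the mean log2 CPM of 4 striatal marker genes (horizontal), with the animal number beside each point. Wild-type animals 2 and 3 have the highest striatal level, and Kcnn2 is lowest in both (39.8 and 95.5 CPM).

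With that level as a term in the model, several positive fold changes moved toward or past 0. Kcnj3 went from 0.35 to 0.05, Kcnn2 from 0.26 to -0.28, Kcnmb4 from 0.19 to -0.16 and Trpc4ap from 0.29 to -0.16 on the log2 scale. Other positive ones, those of Kcna6 (0.33) and Kcnip4 (0.43), moved away from 0. The negative fold changes of Kcnj9 (-0.99), Kcnq5 (-1.51), Cacna1d (-1.39), Trpm3 (-0.46), Cacna1a (-0.26) and Cacnb4 (-0.19) became larger. Those of Clcn2 (-0.53) and Cacna1h (-0.065) became smaller, and those of Kcnk2 (-0.57) and Clcn1 (-1.11) hardly moved.

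Other genes of excitability outside the symbol rule likewise gave no call in edgeR. Of 40 channel partners and axon-anchoring genes 6 were tested, 4 with positive and 2 with negative fold changes (median 0.02). Lgi1, a secreted regulator of Kv1 channels and synapses, was at 946 ± 71.1 CPM (wild type) and 973 ± 261 CPM (dTPR/dTPR; SD, n = 5 each here and below), and Sptbn1, a spectrin, at 292 ± 96.0 and 236 ± 77.0 CPM. Of 27 intracellular calcium channels and sensors 5 were tested, 4 positive and 1 negative (median 0.04), with the calcium sensor gene Hpca at 263 ± 101 and 269 ± 191 CPM. Of 47 other ion channel genes 7 were tested, 2 positive and 5 negative (median -0.20), with Tmem63b at 1858 ± 342 and 1905 ± 231 CPM and Pkd1 at 1856 ± 655 and 1509 ± 434 CPM. Asic4, named after its value was seen, was the 1 gene of these lists at an unadjusted p under 0.05. It was at 119 ± 63.7 and 49.9 ± 26.04 CPM (log2 fold change -1.25 ± 0.50, unadjusted p = 0.025, adjusted p = 0.999 in edgeR).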

How the data were processed

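Total RNA from the cortex of 10 mice was sequenced, 1 library per animal. Per the labels, single-end libraries came from a SENSE kit. The submitters' processing notes name GRCm38.p5, HTSeq, TopHat and DESeq2, while their versions, the annotation release and the strand setting are not given in the sources used here. Raw read counts were deposited by the authors for 53090 Ensembl gene IDs, of which 52403 were found in GENCODE M21 and 0 name no gene.

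Counts were summed per opposite-strand gene: 8188 IDs, with 88.0% of counts, went to 7385 genes. This mapping is inferred from positions, not from reads, and takes in all counts of an ID. Genotypes were compared with edgeR 4.0.16 in R 4.3.3 (TMM factors, filterByExpr, robust quasi-likelihood fits, Benjamini-Hochberg adjustment over 2019 genes), and DESeq2 1.42.0 was an alternative. Standard errors of edgeR fold changes were derived as the size of the log2 fold change over the square root of the F statistic. The fit was tested on simulated data. Relations to the striatal level (log2 CPM, prior count 2) used 100000 permutations and were added after the data were examined. The 5 animals a group are the replicates. Reads carry no molecular identifiers, so the floor of 3 counts covers counting error only.

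The channel genes, gene lists and tests were chosen with earlier results of these data known. The rule was to name every tested channel gene, with each library's value for the 10 with the highest mean CPM and the 5 others with the smallest p. Genes that failed the filter are named where their counts sum to 10 or more. The genes at 0, and Asic4, Fam184b and the channel IDs in the closing section, are named outside this rule, after their values were seen. Other lists give the 2 tested members with the highest mean CPM. A few genes under these rules are in the counts but are not reported by name or value here. Alternatives were DESeq2 size factors, no filter, 1 CPM in 5 libraries, the DESeq2 test, the animal number, age or striatal level in the model, each library and wild-type animals 2 and 3 left out, assignment at 50%, and only IDs at least 50% of whose exon bases face the gene.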

Additional observations from a re-analysis of the deposited data

Results flagged for a closer look

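In 2 of the 36 groups of 5 values examined for the tested channel genes, 1 animal lay far from the other 4, where chance gives about 1 in 20, or 1.8 groups. Kcnj3 in dTPR/dTPR animal 2 was the lowest of its group at 371 CPM, and the other 4 lay between 835 and 898 CPM. Clcn2 in wild-type animal 3 was the highest of its group at 34.2 CPM. In that library 15 counts lay at Polr2h, which held 0 or 1 in the other wild-type libraries. At Fam131a it held 14 counts, within the 10 to 14 of wild type.

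Of 128 channel gene IDs with no annotated exon on the other strand, 4 held more than 3 counts in every library, although the comparisons above do not use them. Sums over the 10 libraries were 685 counts at Kcnf1, 628 at Trpv6, 504 at Kcna1 and 156 at Hcn2. Which transcripts these counts come from was not tested.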

How the results depend on the processing

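The 0 channel genes called held under every alternative run (0 to 0 with each library left out), with a smallest adjusted p of 0.45. Over all genes 0 were called except without a filter, where edgeR called 1, Fam184b. With the filter kept, 0 were called with each library left out. The fit without a filter was not run with libraries left out. Counted channel genes numbered 36, and 5 when at least 50% of an ID's exon bases had to face the gene; fewer IDs qualify there. The animal numbers share no litter or day in the labels, and same-numbered animals correlated at -0.11 to 0.10, with 2 of 5 correlating best with their own number. The replicate block gave 0 calls, and Kcnip4 turned to -0.067.

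Of 18 fold changes, 11 kept their sign in every setting that could be run for them (the restriction to IDs with 50% of exon bases facing gives a value for Cacnb4 and Kcna6 only), and none turned with DESeq2 size factors. The others turned as follows, and the cause was not tested. With wild-type animals 2 and 3 left out, Cacna1h was at 0.069, Kcnmb4 at -0.14 and Kcnn2 at -0.23. With the striatal level, Kcnmb4 was at -0.16, Kcnn2 at -0.28 and Trpc4ap at -0.16. With age, Trpm3 was at 0.00036. With 1 library left out, Cacnb4 ran from -0.18 to 0.10, Kcnip4 from -0.26 to 0.51 and Trpm3 from -0.48 to 0.055. In 14 of 18 genes 1 library moved the fold change by over 1.5 times or turned it.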
